A study of Mus musculus with 10 samples.

Results

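The expression of 7 Schwann cell and myelin genes was followed in mouse extensor digitorum longus (EDL), psoas and soleus muscles. The genes were listed by name: Mbp, Pmp22, Mal and Prx, which encode proteins of the myelin sheath or of the Schwann cell membrane around it, the transcription factor Sox10, the neurotrophin receptor Ngfr and the calcium-binding protein S100b. Their Ensembl identifiers were matched to symbols with the GENCODE M21 annotation of the GRCm38 mouse genome, and 6 of the 7 were found among the 16112 genes with read counts. Sox10 was not among them and was not analysed here. Total RNA of 10 whole-muscle samples was sequenced, of which 3 were of EDL, 3 of psoas and the remaining 4 of soleus, and all of the mice were homozygous wild type animals of the B6C3Fe a/a-Ttnmdm/J strain that had also served another study. The EDL mice were 42, 54 and 44 days old, the psoas mice 42, 54 and 44 days old, and the soleus mice 42, 44, 32 and 44 days old, in the order of the replicate numbers. The labels give 7 animal codes, of which 3 gave a library of 2 muscles each, so libraries of different muscles were not all independent. The study's methods name fewer mice than there are codes, which could not be reconciled, so more libraries may share an animal. Of the 10 libraries, 5 came from males and 4 from females, and the sex of the soleus 3 mouse is not given in the labels. Every difference below thus compares these muscles in young wild-type mice of a single strain, and in whole muscle fewer Schwann cells and less RNA per Schwann cell cannot be told apart.

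Schwann cells are the glia of peripheral nerves, including the motor and sensory branches that run inside a muscle. Myelinating Schwann cells wrap a single axon segment in many layers of membrane, which are held together by a small set of very abundant proteins, while non-myelinating Schwann cells and the terminal Schwann cells of the neuromuscular junction ensheath axons without building myelin. The switch to myelination is driven by Sox10 together with the early growth response factor Egr2, which act on promoters and enhancers of many myelin genes. Several of the genes followed here, Pmp22, Mal, Ngfr and S100b among them, are also transcribed in cells other than Schwann cells.

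In the GENCODE M21 annotation, Pmp22 lies at chr11:63128982-63159547 and Ngfr at chr11:95568818-95587735, Mal at chr2:127633226-127656695, Prx at chr7:27499324-27520214 and S100b at chr10:76253853-76261159, with Mal and Ngfr on the minus strand and the others on the plus strand. The starts of 2 genes are shown because of how their counts can be read. In RefSeq windows of 300 bases (250 before a transcript start and 50 after it, build GRCm38.p6), 5 of the 7 genes were matched, with 8 windows in all. The core of the early growth response site, GCGTGGG, or its reverse complement CCCACGC, occurred in 1 of these 8 windows, that of Prx, and in 5.04% of all 32851 windows. The Sox core ACAAAG, or its reverse complement CTTTGT, occurred in 0 of the 8 windows and in 18.7% of all windows. Below are the 250 bases before the Prx start on the plus strand (chr7:27499074-27499323), with the match in capitals, and the 250 bases before the first and before the third of the RefSeq starts of Pmp22 on the plus strand (chr11:63128732-63128981 and chr11:63132319-63132568), with each CG dinucleotide in capitals.
Prx: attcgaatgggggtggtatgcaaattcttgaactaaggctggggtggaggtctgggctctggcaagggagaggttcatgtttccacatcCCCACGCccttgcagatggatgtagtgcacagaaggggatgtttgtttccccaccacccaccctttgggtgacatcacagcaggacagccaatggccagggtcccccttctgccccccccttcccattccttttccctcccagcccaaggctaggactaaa
Pmp22, start 1: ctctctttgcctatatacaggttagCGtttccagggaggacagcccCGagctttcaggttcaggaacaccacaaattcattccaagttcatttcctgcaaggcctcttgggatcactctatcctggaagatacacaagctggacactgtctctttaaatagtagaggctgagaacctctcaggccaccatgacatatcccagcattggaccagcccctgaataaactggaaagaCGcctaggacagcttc
Pmp22, start 3: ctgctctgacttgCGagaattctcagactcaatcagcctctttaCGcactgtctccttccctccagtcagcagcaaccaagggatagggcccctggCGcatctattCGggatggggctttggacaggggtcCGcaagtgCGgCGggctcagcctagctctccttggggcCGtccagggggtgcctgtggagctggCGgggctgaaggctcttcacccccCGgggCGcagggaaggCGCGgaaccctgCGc
The Prx match began 161 bases before the start. The stretch before the first Pmp22 start held 3 CG dinucleotides, and 37.8% of all windows held as few, whereas the stretch before the third start held 14, and 29.4% of all windows held as many. Pmp22 is known to be transcribed from a start used mainly in Schwann cells and from a downstream start used in many tissues, and the gene-level counts analysed here add up the transcripts of all starts. Gene-level counts of Mbp likewise add up the classic myelin transcripts and the longer Golli transcripts, which are made outside of myelin too.

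The libraries held between 12737971 reads assigned to genes (soleus 3) and 50431713 (psoas 1). Levels are given as normalized CPM, the share of a library's reads that fell in a gene, in parts per 1000000 (counts per 1000000, CPM), after scaling by the trimmed mean of M values (TMM), so they compare libraries within a gene. Before any comparison of muscles, 2 psoas libraries need to be named. Psoas 3, from a 44-day-old female, had the highest level of all 10 libraries in 4 of the 6 genes, and psoas 2, from a 54-day-old male, had the lowest in 4 of the 6. Over all 16112 genes, psoas 3 was the highest library in 8.71% and psoas 2 the lowest in 12.3%. Reads of EDL 1, EDL 2, psoas 1 and psoas 2 had been quality-trimmed by the authors. Those of EDL 3, psoas 3 and every soleus library had not. Trimming is thus in part confounded with muscle in both comparisons that involve soleus. Every trimmed library came from a male, and soleus 1 was the only soleus library labelled male. The part of trimming, sex and age in the gap between psoas 2 and psoas 3 was not tested. Results that rest on these libraries are therefore given with and without them.

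Mbp, which encodes the myelin basic protein that seals the inner faces of the myelin membrane, was measured at 11.0, 11.9 and 6.81 normalized CPM in EDL 1 to 3, at 17.6, 5.20 and 33.6 in psoas 1 to 3 and at 5.75, 8.22, 17.8 and 5.75 in soleus 1 to 4. The lowest and the highest of these 10 values were both psoas libraries, and psoas therefore spanned the ranges of both other muscles. Pmp22, which encodes the peripheral myelin protein whose gene dosage is known to matter in inherited neuropathy, was at 34.9, 31.5 and 21.3 in EDL, at 25.9, 9.89 and 32.6 in psoas and at 19.6, 24.0, 17.5 and 24.2 in soleus. It varied less than Mbp, and only psoas 2 lay far below the other 9 libraries.

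Mal, which encodes a lipid-raft protein of myelin and of polarized epithelia, was at 2.43, 2.30 and 1.59 normalized CPM in EDL, at 3.93, 0.697 and 5.52 in psoas and at 0.684, 0.837, 0.797 and 1.16 in soleus. All 4 soleus libraries were below all 3 EDL libraries, while psoas 2 lay within the soleus range and the other psoas libraries lay above EDL. Prx, which encodes periaxin, a scaffold that links the Schwann cell membrane to the basal lamina, was at 3.34, 2.64 and 2.20 in EDL, at 2.67, 0.507 and 6.44 in psoas and at 0.821, 2.12, 2.55 and 1.27 in soleus. Psoas 2 held 8 Prx reads and psoas 3 held 91. Prx shares 300 of its 5579 exon bases with the antisense gene Gm15541, which itself had 6 to 59 reads, and the strand setting of the counting is not given in the sources used here.

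Ngfr, which encodes the p75 neurotrophin receptor of immature and non-myelinating Schwann cells, was the least abundant of the 6 genes. It was at 0.887, 0.660 and 0.384 normalized CPM in EDL, at 0.422, 0.317 and 0.496 in psoas and at 0.137, 0.209, 0 and 0.422 in soleus. These levels rest on 0 to 38 reads, and the 0 reads in soleus 3 allow up to 0.236 CPM of that library's total, by counting error alone. A gene entered the table only with 10 or more reads in a minimum of 3 libraries, and Ngfr reached 10 reads in EDL 1, EDL 2 and psoas 1 only. S100b, which encodes a calcium-binding protein used as a Schwann cell marker, was at 1.54, 2.07 and 1.15 in EDL, at 1.53, 0.571 and 2.20 in psoas and at 0.616, 0.927, 1.75 and 1.16 in soleus. Its order within psoas was that of the other 5 genes, with psoas 3 highest and psoas 2 lowest.

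**Figure D1:**
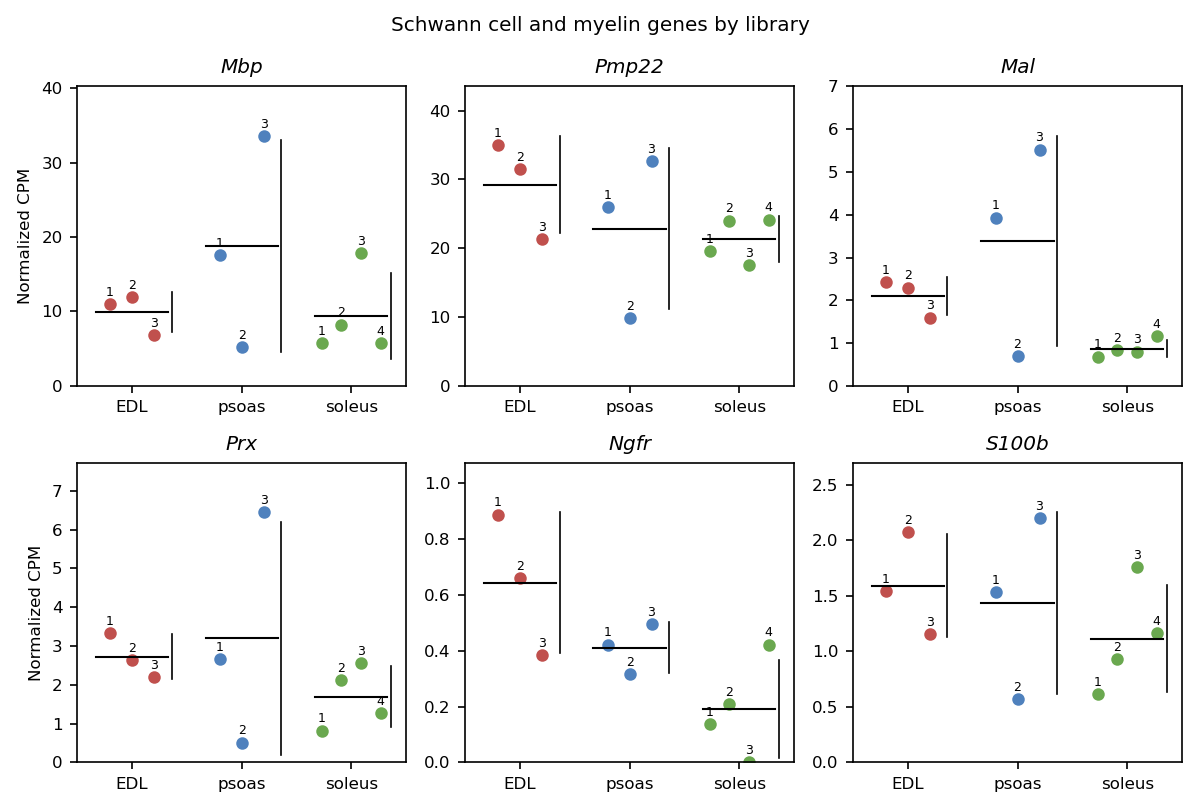
Each panel plots the normalized CPM (linear axis from 0) of one gene in the 3 EDL, 3 psoas and 4 soleus libraries, with the replicate number above each point. The horizontal line is the mean and the vertical line beside it the mean ± 1 SD over the libraries of a muscle. Psoas 3 is the highest psoas library in all 6 panels and psoas 2 the lowest, and for Mal the 4 soleus points (0.684 to 1.16) lie below the 3 EDL points (1.59 to 2.43).

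On a scale that divides by gene length (FPKM, computed from the counts), the median level over the 10 libraries was 9.91 for Pmp22, 1.11 for Mbp, 0.895 for S100b, 0.487 for Mal, 0.425 for Prx and 0.115 for Ngfr. The lowest Pmp22 level, 4.24 FPKM, was above the highest Mbp level, 3.91, so Pmp22 led in every library. The levels of every other pair of neighbours in this order overlapped between libraries. The ratio of Pmp22 to Mbp FPKM was 9.47 to 11.4 in the EDL libraries, 3.50 to 6.84 in psoas and 3.55 to 15.1 in soleus. The ratio of Mal to Prx was 1.46 to 1.75 in EDL, 1.72 to 2.96 in psoas and 0.628 to 1.84 in soleus. Both ratios varied least among the EDL libraries and most among the soleus libraries.

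The psoas and EDL comparison sets apart 2 fast muscles. None of the 6 genes passed the test of adjusted p under 0.01 with a fold change over 2 in edgeR's quasi-likelihood fit, in which 2.11% of all genes were called. With DESeq2 and limma-voom 0 of the 6 were called as well, and with each of the 3 tools 0 were at an unadjusted p under 0.05 (29% of all genes in edgeR). The libraries overlapped for all 6 genes, and 29.6% of all genes had groups without overlap. Of the 6, 3 had a higher mean in psoas and 3 a lower one, with a median log2 fold change of 0.02, against 0.01 over all genes. The intervals were wide. Mbp had a log2 fold change of 0.91 with a 95% interval from -0.34 to 2.16 (adjusted p = 0.318), and Prx had 0.21 with an interval from -1.17 to 1.59 (adjusted p = 0.866). The median of the 6 was 0.44 without psoas 2, -0.62 without psoas 3 and -0.05 without both, so each of these libraries alone could set its sign. With 3 libraries a muscle, the absence of a call does not mean equal levels. Differences inside these intervals remain compatible with the data.

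In the comparison of soleus, a slow muscle, with EDL, all 6 genes had a lower fitted level in soleus and none passed the test in edgeR, in which 5.77% of all genes were called. At an unadjusted p under 0.05 there were 2 of the 6, Mal and Ngfr, in edgeR (35% of all genes) and in DESeq2, and 1 in limma-voom, and none was called by DESeq2 or limma-voom. Mal had a log2 fold change of -1.28 with a 95% interval from -2.40 to -0.15 (adjusted p = 0.103). Ngfr had -1.65 with an interval from -3.02 to -0.29 (adjusted p = 0.0837), on the low counts given above. The libraries of the muscles did not overlap for 1 of the 6 genes, Mal, and 29.5% of all genes had groups without overlap (14.3% with soleus lower). The other 4 genes had log2 fold changes from -0.10 (Mbp) to -0.69 (Prx), and the median of the 6 was -0.62, against -0.05 over all genes. Mbp turned to 0.05 to 0.07 without EDL 2, soleus 1 or soleus 4. As a covariate, read trimming gave -0.55 for Mbp, sex -0.87 and a proxy of the sequencing run (described below) -0.95. With sex, Prx was at -1.48, Mal at -1.53, S100b at -1.06 and Pmp22 at -0.52, while Ngfr was nearer to no difference, at -1.39.

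In the comparison of soleus with psoas, all 6 genes again had a lower fitted level in soleus, and none passed the test in edgeR, in which 5.69% of all genes were called. This comparison shares the soleus libraries with the one before it, so the like direction is not a second observation. Mal, at 0.870 ± 0.205 normalized CPM in soleus (SD, n = 4) and 3.38 ± 2.46 in psoas (SD, n = 3), had a log2 fold change of -1.95 with a 95% interval from -3.08 to -0.81 and an edgeR adjusted p of 0.0273, the 1 gene of the 6 at an unadjusted p under 0.05 (28.4% of all genes). The libraries of these muscles overlapped for all 6 genes (25.8% of all genes had groups without overlap). Mal was called with DESeq2 (log2 fold change -1.98, adjusted p = 0.00286, with 8.58% of all genes called) and was not with limma-voom (-1.61, adjusted p = 0.127). In edgeR it was called without psoas 2 (-2.41, adjusted p = 0.00166) and without psoas 2 and psoas 3 together (-2.17, adjusted p = 0.0087), where the lone psoas library is assumed to vary like the other muscles. Without psoas 3 it was not called, at a log2 fold change of -1.45.

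For Mbp, the log2 fold change between soleus and psoas was -1.01, with an interval from -2.18 to 0.16 (adjusted p = 0.245). Without psoas 3 its difference was -0.31, and without psoas 2 it was -1.43. Prx moved from -0.90 to 0.02 without psoas 3, S100b from -0.38 to 0.00 and Pmp22 from -0.10 to 0.24. Pmp22 was also above 0 with limma-voom (0.06) and with the animal as a random effect (0.02). With sex as a covariate the difference was -1.59 for Mbp, -1.37 for Prx, -0.79 for S100b and -0.09 for Pmp22. Read trimming as a covariate gave -1.28 for Mbp, -1.31 for Prx, -0.51 for S100b and -0.19 for Pmp22. The median of the 6 was -0.94, against 0.02 over all genes, and it was -0.15 without psoas 3 and -0.80 without both libraries. Without psoas 2 and psoas 3 together, with psoas 1 alone against soleus, the difference was -0.93 for Mbp, -0.66 for Prx, -0.49 for S100b and -0.29 for Pmp22. For these 4 genes the size of the difference thus moved with the psoas libraries in the fit, while Mal was lower in soleus with each of these sets of psoas libraries.

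**Figure D2:**
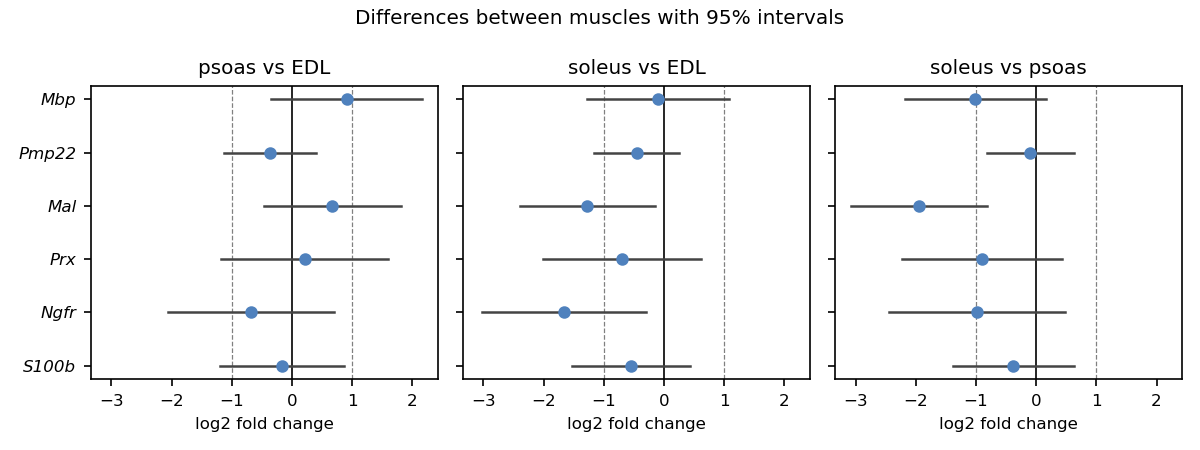
Each panel plots the log2 fold change (horizontal axis) of the 6 genes in 1 comparison of muscles, as the edgeR estimate (point) with its 95% interval (line). Dashed lines mark a fold change of 2 in either direction. All 6 points lie left of 0 in both comparisons that involve soleus, and the intervals of Mal (-2.40 to -0.15 and -3.08 to -0.81) and, against EDL, of Ngfr (-3.02 to -0.29) leave out 0.

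For 5 of the 6 genes, all but Ngfr, the range within psoas was larger than each fitted difference between muscles. Among the 3 psoas libraries, the median range of the 6 genes was 2.22 on the scale of log2(normalized CPM + 0.1), or 4.66-fold, against 0.63 over all genes. In EDL the median range of the 6 genes was 0.75 against 0.58 over all genes, and in soleus it was 1.45 against 0.68. Psoas 3 exceeded psoas 2 by 12.7-fold for Prx (91 and 8 reads, 95% interval of the ratio 6.18 to 30.3), by 7.92-fold for Mal (4.19 to 16.5), by 6.46-fold for Mbp (5.10 to 8.26), by 3.85-fold for S100b (1.79 to 9.19) and by 3.30-fold for Pmp22 (2.75 to 3.98). For Ngfr, at 7 and 5 reads, the ratio was 1.56 with an interval from 0.427 to 6.25. These exact intervals cover counting error only and compare libraries, not conditions. The 2 libraries were singled out by their levels of these same 6 genes, so the direction of these ratios follows in part from that choice. Psoas 1 lay between the other psoas libraries in all 6 genes, at 3.38 times psoas 2 for Mbp and 5.64 times for Mal.

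The other genes of the myelin sheath were ordered alike in these libraries. All 10 other myelin protein genes with counts were higher in psoas 3 than in psoas 2, with a median ratio of 4.10, against 1.02 over all genes, of which 5.46% were more than 2-fold higher in psoas 3. Ugt8a, which encodes the enzyme that makes the galactolipids of myelin, was at 3.09, 0.571 and 7.08 normalized CPM in psoas 1 to 3 and between 0.205 and 1.36 in EDL and soleus. Among the myelin protein genes Cd9 (1.19-fold) and Cnp (1.55-fold), which are expressed by many cell types, differed least.

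Other genes of the Schwann cell lists shared this order in part, where 52.2% of all genes were higher in psoas 3 than in psoas 2. The ratio of psoas 3 to psoas 2 had a median of 2.45 over 6 genes of immature or non-myelinating Schwann cells, 5 of them higher in psoas 3, and of 1.56 over 8 genes of signals and receptors, 7 of them higher. Over 7 genes of the nodes it was 1.26, with 4 higher, and over 5 Schwann lineage transcription factors it was 0.864, with 2 higher and with Egr2 at 2 reads in each of these libraries.

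Among genes of other cells in the tissue the medians were lower than those of the 6 genes and of the other myelin protein genes. On the same scale, the ratio of psoas 3 to psoas 2 had a median of 2.03 over 3 perineurial genes, all higher in psoas 3 (52.2% of all genes were), and of 1.37 over 3 axon genes, 2 of them higher. The axon genes had 25 and 20 (Stmn2), 4 and 2 (Uchl1) and 0 and 2 reads (Prph) in psoas 3 and psoas 2. These reads are too few to tell how far axon RNA differed. The median ratio was 1.05 over 6 fibroblast genes, 0.899 over 8 tendon genes, 0.873 over 6 endothelial genes, 0.816 over 7 adipocyte genes and 1.30 over 6 muscle fiber genes. Over 7 macrophage genes it was 0.602, with 0 of 7 higher in psoas 3. None of 6 oligodendrocyte genes (Mog, Mobp, Opalin, Olig1, Olig2 and Ermn) was among the 16112 genes. Sox10, Pmp2 and Gjb1 of the Schwann cell lists were not either, so absence from these genes does not tell central from peripheral myelin. Neurofilament genes (Nefl, Nefm and Nefh) were likewise not among the 16112 genes, which left Stmn2, Prph and Uchl1 as axon genes. These did not move alike between the muscles, so they give no single measure of axon RNA.

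**Figure D3:**
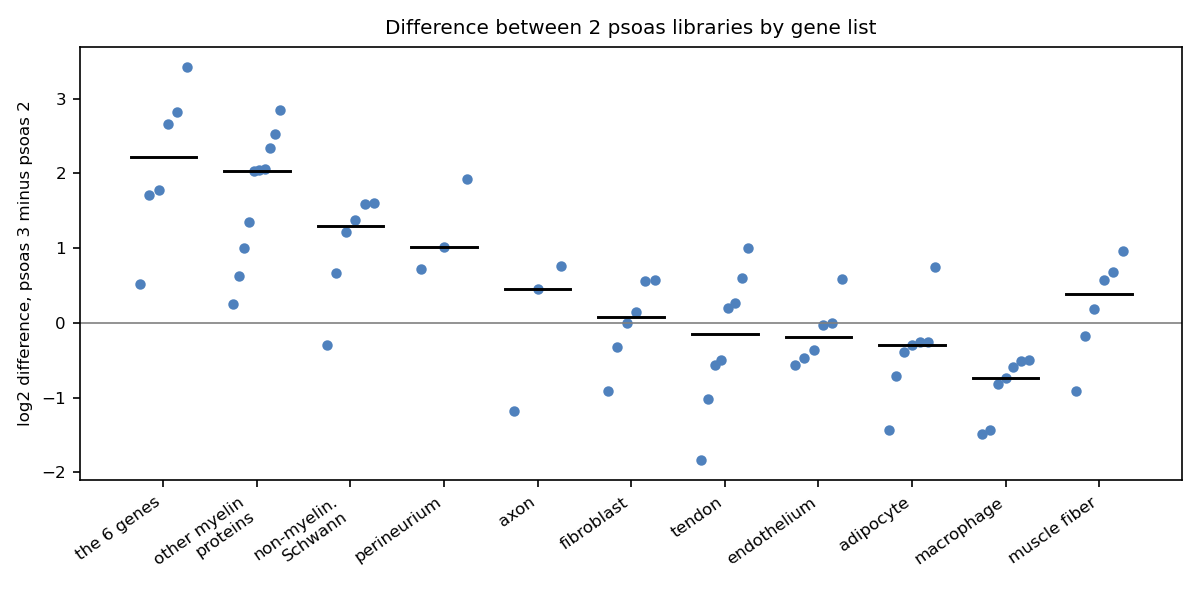
The vertical axis is the level in psoas 3 minus that in psoas 2, on the scale of log2(normalized CPM + 0.1), with a point per gene and a line at the median of each gene list on the horizontal axis. The 6 Schwann cell and myelin genes (median 2.22) and the 10 other myelin protein genes (median 2.03) all lie above 0, and the 7 macrophage genes all lie below it. Of all 16112 genes, 52.2% were higher in psoas 3 than in psoas 2. Psoas 3 and psoas 2 were singled out by their levels of the 6 genes.

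The 6 genes also varied together over all libraries, as a description of these 10 libraries, which share muscles and in part animals. Pearson correlations of log2(normalized CPM + 0.1) between Mbp, Pmp22, Mal, Prx and S100b were 0.52 to 0.90 over 10 pairs of genes, with a median of 0.77. Over the 8 libraries without psoas 2 and psoas 3 they were 0.14 to 0.81, with a median of 0.62. Ngfr, with 0 reads in soleus 3, was less alike by Pearson correlation, at 0.03 to 0.64 over its 5 pairs. Without psoas 2 and psoas 3 its pairs were at -0.14 (with Mbp) to 0.90 (with Pmp22). By Spearman's rho over 10 libraries they were at 0.26 (with Mbp) to 0.88 (with Pmp22). Over all 10 libraries, the highest Pearson correlation was between Prx and S100b (0.90, Spearman's rho 0.87) and the lowest that of Mbp with Ngfr (0.03). Soleus 3, from the youngest mouse, was high in Mbp (17.8), Prx (2.55) and S100b (1.75) for a soleus library, and was not in Pmp22, Mal and Ngfr.

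The genes with a pattern most like the mean of the 6 (each scaled to mean 0 and SD 1) were sought among 12708 genes with a mean of at least 1 normalized CPM. Kcna1 came first, with a Pearson correlation of 0.95 over 10 libraries. It encodes a potassium channel found beside the nodes of myelinated axons, and was listed here with the immature or non-myelinating genes. Cdh19, a cadherin of the Schwann lineage, followed (0.91). Csrnp2, Zfp953, 5430405H02Rik, Exosc10, Gm37204, Alkbh1 and 6820431F20Rik were also among the first 10, at 0.83 to 0.87. Ugt8a came 14th, at 0.82. Of the 24 other Schwann cell genes that could be ranked, 3 were among the first 10 genes, and without psoas 2 and psoas 3 there were 0. Kcna1 itself stayed at 0.95 without these libraries.

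**Figure D4:**
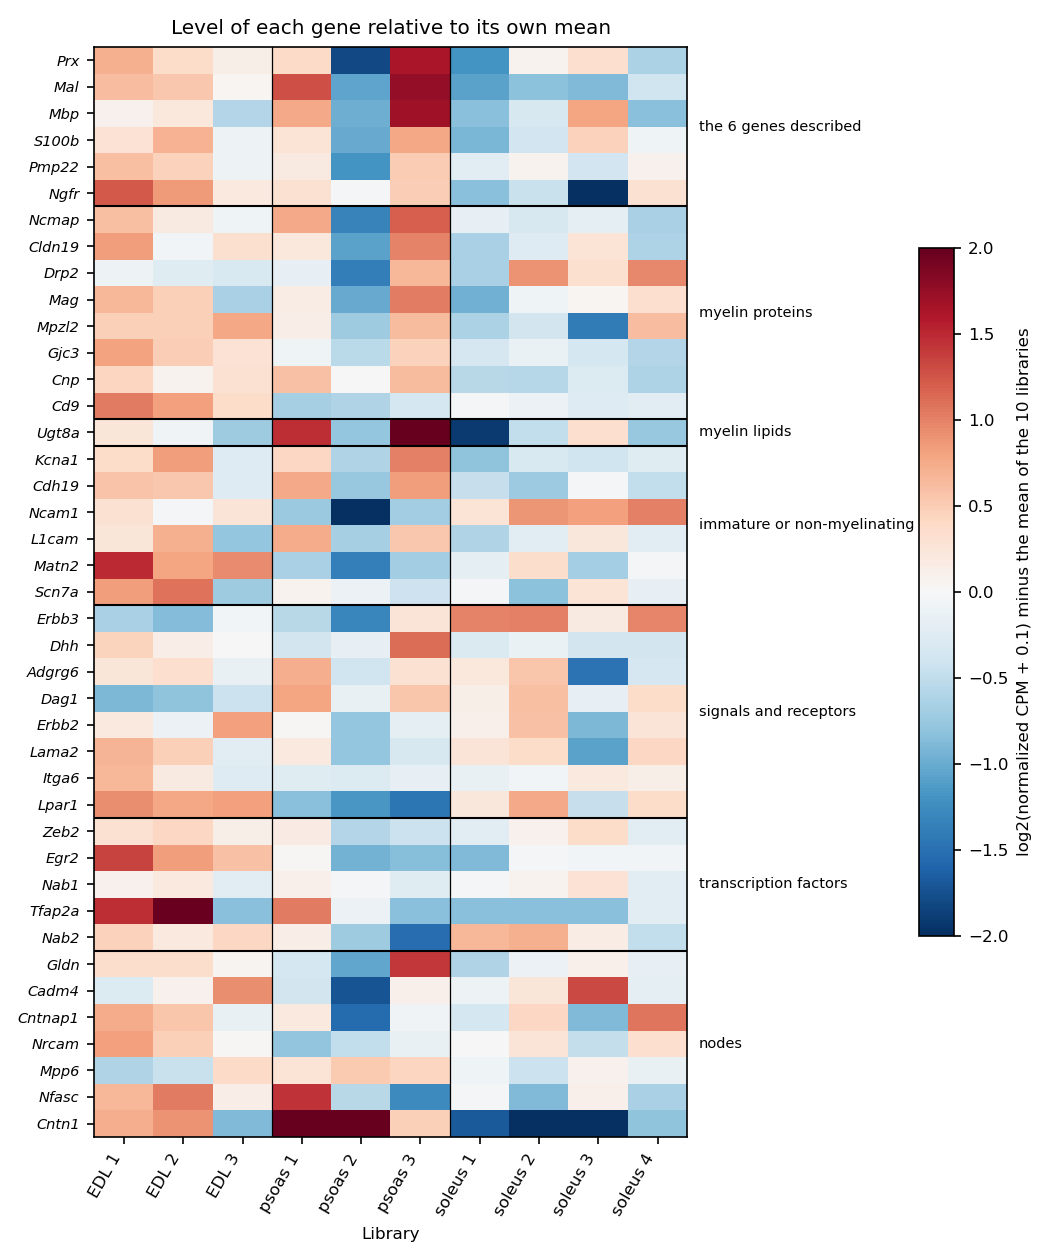
Rows are the 6 genes and 35 of the other genes of the Schwann cell lists, grouped by list, and columns are the 10 libraries. Color gives log2(normalized CPM + 0.1) minus the mean of the gene over the 10 libraries, limited to a range of -2 to 2. Psoas 3 is higher than psoas 2 in all rows of the upper 3 blocks, in 5 of 6 rows of immature or non-myelinating genes and 7 of 8 of signals and receptors, and in 2 of 5 rows of transcription factors and 4 of 7 of nodes. Of all genes, 52.2% were higher in psoas 3.

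Of 50 other genes in 6 lists of Schwann cell genes, 37 had counts. In psoas against EDL, 3 of the 37 were called lower (1.57% of all genes were) and 0 higher (0.54% of all genes were), with a median log2 fold change of -0.19 over the 37. Lpar1, which encodes a receptor for lysophosphatidic acid, fell from 22.5, 20.2 and 20.8 normalized CPM in EDL to 6.54, 5.20 and 4.25 in psoas (log2 fold change -1.98, SE 0.27, adjusted p = 0.00288). Matn2, which encodes the matrix protein matrilin-2, fell from 31.9, 19.6 and 21.8 to 7.18, 4.31 and 6.94 (-1.99, SE 0.29, adjusted p = 0.00352). Cd9, which encodes a tetraspanin, fell from 33.6, 28.7 and 21.04 to 10.2, 10.7 and 12.7 (-1.32, SE 0.19, adjusted p = 0.00297). Lpar1 and Matn2 do not encode proteins of compact myelin, and all 3 genes are also expressed by fibroblasts or other cells. With the replicate number as a block in the fit of all libraries, Matn2 (adjusted p = 0.0126) and Cd9 (0.0127) were not called and Lpar1 was (0.00652). In a fit of EDL and psoas alone with this block, which was chosen after seeing the data, Matn2 and Lpar1 were called, Cd9 was not called (adjusted p = 0.0161) and Cntn1 was (1.97, adjusted p = 0.00729). Without psoas 2 or without EDL 1, 0 of the 37 were called, and without psoas 1 or without psoas 3, 1 was.

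Tendon, fibroblast and macrophage markers moved with these 3 genes. In psoas against EDL, 7 of 8 tendon genes were called lower, and their summed level was 959 to 1269 normalized CPM in EDL and 48.5 to 103 in psoas. Of 6 fibroblast genes, 2 were called lower (Dcn and Pi16), with sums of 1474 to 2907 in EDL and 578 to 904 in psoas. Among 7 macrophage genes, Mrc1 was called lower (log2 fold change -1.66, edgeR adjusted p = 0.00658). The macrophage genes summed to 75.2 to 183 in EDL and 33.5 to 68.3 in psoas. The 6 Schwann cell and myelin genes summed to 33.4 to 54.1 in EDL, 17.2 to 80.9 in psoas and 27.6 to 40.4 in soleus. The part of tendon, connective tissue and macrophages in the changes of Lpar1, Matn2 and Cd9 was not tested.

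In soleus against EDL, 0 of the 37 other Schwann cell genes were called by edgeR (5.77% of all genes were), and 11 were at an unadjusted p under 0.05 (29.7%, against 35% of all genes). With DESeq2 3 of the 37 were called (8.11%, against 9.43% of all genes) and with limma-voom 2 (5.41%, against 6.06% of all genes). None of these shares was above that of all genes. Of the 37, 30 had a negative and 7 a positive log2 fold change, with a median of -0.55. Erbb3, which encodes the neuregulin receptor that Schwann cells need to survive and myelinate, was among the few with a higher level in soleus (11.8 ± 2.88 normalized CPM, SD, n = 4, against 4.71 ± 1.47 in EDL, SD, n = 3), without passing the test (log2 fold change 1.34, adjusted p = 0.0248). Egr2, the factor that drives myelin genes, had 0.744 ± 0.234 in EDL (SD, n = 3), 0.204 ± 0.121 in psoas (SD, n = 3) and 0.275 ± 0.0925 in soleus (SD, n = 4). Its log2 fold changes against EDL were -1.72 in psoas (adjusted p = 0.0548) and -1.41 in soleus (adjusted p = 0.0581), on 2 to 43 reads a library.

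In soleus against psoas, 2 of the 37 genes were called higher (2.99% of all genes were) and 1 lower (2.71% of all genes were). Ncam1, the neural cell adhesion molecule of non-myelinating Schwann cells, which muscle fibers express too, rose from 3.03, 1.14 and 3.12 normalized CPM in psoas to 6.23, 9.51, 9.17 and 10.4 in soleus (log2 fold change 1.85, SE 0.32, adjusted p = 0.00323). Lpar1 rose to 13.8, 19.8, 8.53 and 15.1 in soleus (1.42, SE 0.26, adjusted p = 0.00398), and 5 of 8 tendon genes were called higher beside it. Cntn1, which encodes the axonal adhesion protein contactin of the paranode, fell from 8.68, 8.56 and 1.56 in psoas to 0.274, 0.150, 0.159 and 0.581 in soleus (-4.44, SE 0.69, adjusted p = 0.0016). In Cntn1, as in Lpar1, psoas 3 was the lowest of the 3 psoas libraries, unlike in the 6 genes. With read trimming as a covariate, Lpar1 (adjusted p = 0.0138) and Ncam1 (0.0251) were not called and Cntn1 was (-2.63, adjusted p = 0.00824). With the replicate block, Lpar1 (adjusted p = 0.0127) and Ncam1 (0.0151) were not called either. Cntn1 was not called with limma-voom (adjusted p = 0.0182), with the animal as a random effect (0.0167) or with a proxy of the sequencing run as a covariate (trimmed libraries, untrimmed ones of mice of 44 days and other untrimmed ones, 0.0248), with which Ncam1 was not called either (0.0255). Lpar1 was not called without psoas 2, psoas 3, soleus 2 or soleus 4, and Ncam1 was not without soleus 2 or soleus 4.

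**Figure D5:**
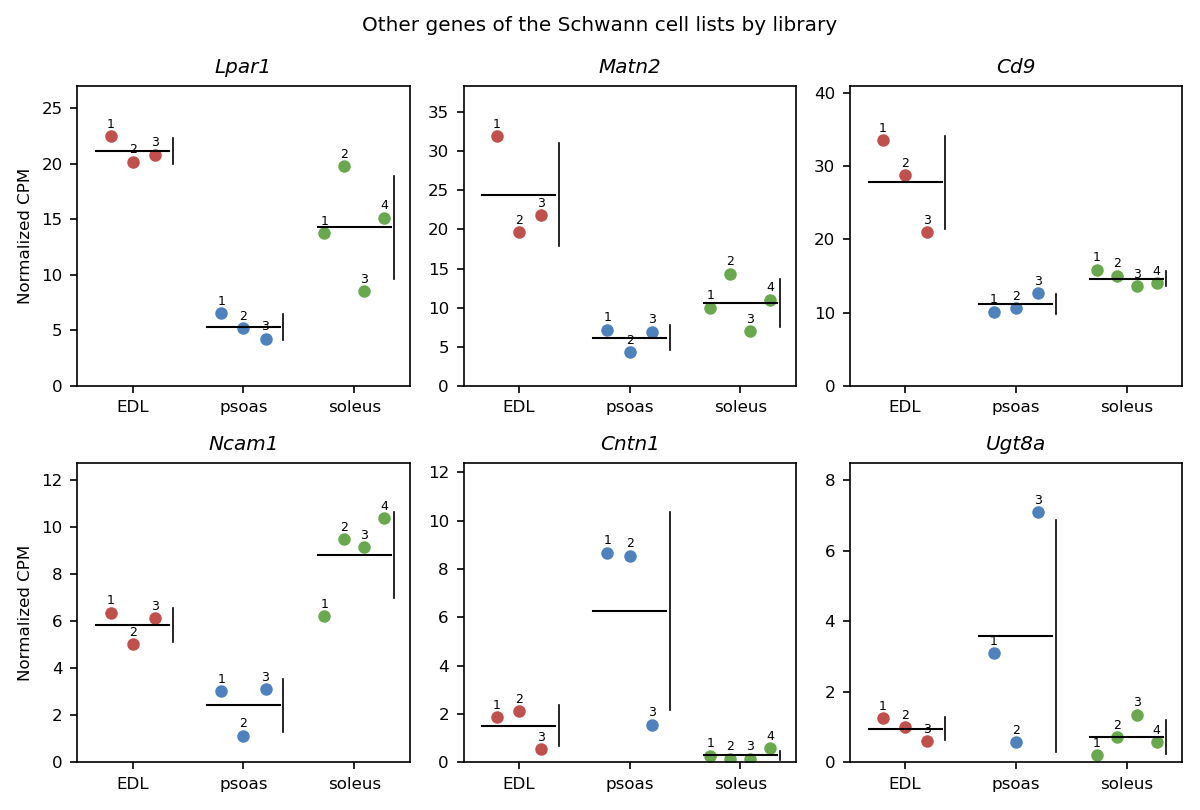
Each panel plots normalized CPM (linear axis from 0) by library for the 5 other Schwann cell genes that were called in a comparison and for Ugt8a, with the replicate number above each point, the mean as a horizontal line and the mean ± 1 SD as a vertical line (cut at 0). The 3 psoas points of Lpar1 (4.25 to 6.54) lie below all EDL and soleus points, while Ugt8a spans 0.571 to 7.08 within psoas.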

How the data were processed

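Gene-wise read counts of 10 libraries were deposited by the authors, who trimmed low-quality libraries with Trimmomatic 0.32, aligned paired reads from ribosomal-RNA-depleted, stranded libraries to GRCm38 with TopHat 2.1.1, counted reads per gene and dropped genes with fewer than 3 libraries at 10 reads or more. The counts were analysed in edgeR 4.0.16 (quasi-likelihood test, TMM, muscle as the only term, all libraries in 1 fit, Benjamini-Hochberg adjustment over 16112 genes), and a gene was called at an adjusted p under 0.01 with more than a 2-fold difference, as in the study's methods. DESeq2 1.42.0, limma-voom (limma 3.58.1), other scalings, filters, covariates and left-out libraries were alternatives. The code was tested on simulated data. FPKM used DESeq2 size factors and GENCODE M21 exon lengths. P-values measure the spread between these libraries, some of which share an animal. The number of libraries and 0 to 38 reads limit Ngfr most.

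The named genes were the listed genes, every called gene of the other lists and the 10 genes most like the mean of the listed genes. Ugt8a, Cnp, Erbb3, Egr2 and, within other lists, further genes were named after their values were seen. The values of 2 genes that the lists and their counts include are not reported here. Members and lists were chosen with earlier results of these data known. Same-numbered EDL and psoas libraries deviated together (correlation over genes 0.11 to 0.50 in 3 pairs). So did EDL 1 with psoas 2 (0.30) and EDL 2 with psoas 1 (0.28), above EDL 2 with psoas 2 (0.11). The other differently numbered EDL and psoas pairs were at -0.45 to -0.28. The 3 pairs of libraries with a shared animal code were at 0.18, 0.33 and 0.36. The mice of same-numbered EDL and psoas libraries had the same age and sex and their reads the same trimming, while their animal codes differ. The part of age, sex, trimming or a shared animal in these correlations was not tested. Same-numbered soleus libraries did not deviate with the EDL and psoas libraries throughout (-0.15 to 0.33 with EDL and -0.21 to 0.33 with psoas). The mice of soleus 2 and soleus 3 differ in age from those of the same number. No table of protein sequences was used here.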

Additional observations from a re-analysis of the deposited data

How the results depend on the processing

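The count of the 6 genes called stayed at 0 in psoas against EDL (27 alternatives) and in soleus against EDL (26 alternatives). In soleus against psoas it was 0, and it was 1 (Mal) with DESeq2, with an adjusted p under 0.05, and without psoas 2 and psoas 3, which was chosen after seeing the data. Leaving out 1 library at a time gave 0 to 1. Not every alternative tested all 6 genes. Ngfr was left out by filterByExpr, and Prx, Ngfr and S100b by the filter of at least 10 reads in every library. Of the other 37 Schwann cell genes, 3 were called in psoas against EDL, against 5 with DESeq2, with a run proxy as a covariate (trimmed libraries, untrimmed ones of mice of 44 days and other untrimmed ones) and with an adjusted p under 0.05, and 0 without psoas 2 and psoas 3, with 0 to 3 when 1 library was left out. In soleus against EDL the count was 0, against 3 with DESeq2, 2 with limma-voom, upper-quartile scaling, at least 10 reads in every library or the animal as a random effect, 1 with DESeq2 size factors, filterByExpr, only the muscles compared or no fold change threshold, and 4 with an adjusted p under 0.05, with 0 to 2 when 1 library was left out (2 without EDL 3). In soleus against psoas it was 3, against 5 with DESeq2 and with an adjusted p under 0.05, and 1 with read trimming or the run proxy as a covariate and without psoas 2 and psoas 3, with 1 to 4 when 1 library was left out.

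With the replicate number as a block in the fit of all libraries, 0 of the 6 genes were called in each comparison, and the other Schwann cell genes called were 1 in psoas against EDL, 1 in soleus against EDL and 1 in soleus against psoas. In EDL and psoas alone with the replicate block, which was chosen after seeing the data, 0 and 3 were called. Over all genes, the number called ranged from 7 to 1233 in psoas against EDL (340 as reported), from 251 to 1853 in soleus against EDL (929) and from 368 to 1563 in soleus against psoas (917). Among the first 10 genes by likeness, Schwann cell genes numbered 3 as reported, and 0 to 5 in the alternatives. Depth limited Ngfr, Prx, S100b and Mal most, with counts as low as 0, 8, 9 and 10.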

Other observations

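Among marker genes of other cells, Dct, which encodes a melanin-synthesis enzyme of melanocytes, had 10 to 38 reads in the 4 soleus libraries and 0 to 2 reads in the 6 EDL and psoas libraries. It was the 1 of 3 melanocyte genes with counts that was called higher in soleus than in EDL (edgeR adjusted p = 0.00877). Tyr went the other way, with 5 to 18 reads in soleus and 12 to 60 in EDL (log2 fold change -0.99, edgeR adjusted p = 0.269). Mitf was higher in soleus without being called (0.65, edgeR adjusted p = 0.0172). Melanocytes share with Schwann cells an origin in the neural crest, but Tyrp1, Mlana and Pmel were not among the 16112 genes.

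Prph, which encodes the neuronal intermediate filament peripherin, had 41 to 141 reads in the EDL libraries, 0 to 2 in psoas and 3 to 103 in soleus. It was called lower in psoas than in EDL (edgeR adjusted p = 0.00497) and higher in soleus than in psoas (adjusted p = 0.00374). Uchl1, a neuronal ubiquitin hydrolase, was highest in soleus 3 at 6.62 normalized CPM, against 0.867 to 3.08 in the other soleus libraries. Stmn2, which encodes an axonal stathmin, was between 1.27 and 2.79 normalized CPM in all 10 libraries.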
